A study of Mus musculus with 6 samples.

Results

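AMPA receptors are the glutamate-gated ion channels that carry most of the fast excitatory current at cortical synapses. Each channel is a tetramer of the GluA subunits, encoded by Gria1, Gria2, Gria3 and Gria4, and auxiliary proteins that travel with the pore set its delivery to the membrane, its gating and its recovery from desensitization. The 10 genes described here were the pore subunits Gria1 to Gria4, the cornichon homologs Cnih2 and Cnih3, the CKAMP proteins Shisa6 and Shisa9, the auxiliary subunit Gsg1l and the scaffold Grip1. All 10 were found among 55421 genes of the deposited tables by their symbol. They were selected on measured values, with earlier results of the same age comparison in view, so their age differences are a description, and the calls counted for them below support nothing.

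The study compared the cerebral cortex of male C57BL/6J mice of WT genotype at 6 months of age (mice 10, 11 and 17) and at 24 months of age (mice 2, 4 and 5), with 3 mice in each group. All 6 mice were given isoflurane before death, and each library was made from 10 ng of total RNA with a low-input kit. The question was which transcripts differ between the young adult and the old adult cortex. Each library is a different animal, and the tissue was whole cortex in bulk, so fewer cells of a type and less RNA per cell cannot be told apart. The libraries held between 29495379 and 36494240 counts, and 33974 to 35651 genes had a count in the young mice, beside 40208 to 43561 in the old mice. Neuronal markers such as Snap25 and Syt1 were abundant in every library, and markers of striatal neurons were present in all 6, at a summed 162 to 185 TPM (a level scaled to the library and corrected for gene length) at 6 months and 125 to 175 TPM at 24 months. None of the markers examined was at 0 in all libraries.

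The calcium permeability of the channel turns on a codon in the pore loop, the Q/R site. The genome encodes a glutamine there in every subunit, and in Gria2 the enzyme ADAR2 (gene Adarb1) edits the RNA so that an arginine is built in, which makes channels with GluA2 nearly impermeable to calcium. The coding sequence around this codon is shown because the edit at this site in the RNA of Gria2 sets apart a receptor with GluA2 from one without. The genomic sequence holds the unedited codon. The windows are 69 bases of the GRCm38 reference, 5′ to 3′ on the coding strand, with the glutamine codon in capitals.
Gria1: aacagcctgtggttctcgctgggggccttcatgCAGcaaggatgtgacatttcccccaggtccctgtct
Gria2: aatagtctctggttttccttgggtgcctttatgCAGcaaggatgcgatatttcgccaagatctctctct
Gria3: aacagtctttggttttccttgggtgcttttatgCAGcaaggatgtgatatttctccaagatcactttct
Gria4: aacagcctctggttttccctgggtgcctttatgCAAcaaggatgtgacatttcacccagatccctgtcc

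The codon lay at chr11:57243094-57243096 on the plus strand in Gria1, in exon 11 of 16 of the coding transcript used, as residue 600 counted from the initiator methionine. In Gria2 it lay at chr3:80706911-80706913 on the minus strand, also in exon 11 of 16, as residue 607. In Gria3 it lay at chrX:41610265-41610267 on the plus strand, in exon 11 of 16, as residue 612. In Gria4 it lay at chr9:4464137-4464139 on the minus strand, in exon 12 of 17, as residue 608. Gria1, Gria2 and Gria3 carried CAG and Gria4 carried CAA. The windows of Gria2 and Gria3 were the most alike, with 62 of 69 bases identical, and those of Gria1 and Gria2 the least, with 54. Gene counts hold no information on the edited base, so the values below are of the whole transcript of each gene.

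Over all 6 mice, the members covered a wide range of levels. Cnih2 had the highest mean TPM, 728.6 ± 487 (SD, n = 6), followed by Gria1 at 341.4 ± 30.9 and Gria2 at 248.7 ± 47.3. Cnih3 followed at 161.4 ± 17.2 TPM, Gria3 at 137.0 ± 20.7, Gsg1l at 71.85 ± 6.81, Gria4 at 59.82 ± 7.79 and Shisa9 at 50.91 ± 8.67. Grip1 stood at 7.983 ± 1.3 TPM and Shisa6 at 1.509 ± 0.206. The first 8 therefore lay above the 93rd percentile of all genes of the tables, and Shisa6 at the 69.4th. Of the 9 pairs of neighbours in this order, 8 differed in the same direction in 6 of 6 mice (log2(TPM + 1), exact two-sided sign-flip permutation test, p = 0.0312 for each and adjusted p = 0.0352 over the 9 pairs). That p is the smallest that 6 mice allow. Cnih2 exceeded Gria1 in 5 of 6 mice and this pair did not pass the test (mean difference of 0.64 on the log2 scale, exact p = 0.344, adjusted p = 0.344). TPM divides by the length of all annotated exons of a gene, 15548 bases for Gria2 and 6043 for Gria1, and before this division Gria2 had the most counts of all members.

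Gria1 encodes GluA1, a subunit whose insertion is a well-known step of synaptic potentiation. It lies at chr11:57011387-57330244 (ENSMUSG00000020524.16) on the plus strand of GRCm38. Its CPM (a count scaled to the library total with TMM factors, not divided by length) was 632.3, 663.8 and 583.3 in the 6-month mice 10, 11 and 17, and 513.4, 517.7 and 482.9 in the 24-month mice 2, 4 and 5. The old group lay wholly below the young one. The group means were 626.4 ± 40.6 and 504.6 ± 19.0 CPM (SD, n = 3), a log2 fold change at 24 against 6 months of -0.31 (SE 0.087).

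Gria2 encodes GluA2, the subunit that carries the edited Q/R site. It lies at chr3:80681450-80802835 (ENSMUSG00000033981.14) on the minus strand. Its TMM-scaled level was 1335, 1313 and 1136 CPM in the young mice and 745.3, 853.8 and 999.3 CPM in the old mice. The groups did not overlap, and the highest old mouse, mouse 5, was nearest to the lowest young one, mouse 17. The log2 fold change was -0.54 (SE 0.119), the lowest among the members. On the deposited TPM scale, the young mice spanned 257.4 to 300.0 TPM and the old mice 182.6 to 244.6 TPM, again without overlap.

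Gria3, the X-linked subunit gene (chrX:41400854-41678601, ENSMUSG00000001986.16, plus strand), had 445.8, 432.7 and 406.3 CPM at 6 months and 269.2, 317.4 and 354.7 CPM at 24 months. Its groups were separate, and its log2 fold change was -0.45 (SE 0.110). Gria4 encodes a subunit known from interneurons and the thalamus as well as the cortex (chr9:4417896-4796234, ENSMUSG00000025892.16, minus strand). It had 120.7, 118.2 and 108.7 CPM in the young mice and 75.99, 93.81 and 103.2 CPM in the old mice, with a log2 fold change of -0.35 (SE 0.119), or -0.23 without mouse 2. Its groups were separate on CPM but overlapped on TPM, where mouse 5 (62.31 TPM) stood above mouse 17 (60.76 TPM). In Gria2, Gria3 and Gria4 alike, mouse 2 was the lowest and mouse 5 the highest of the old group. Small microRNA genes lie within exons of Gria2, Gria3 and Gria4, and none had more than 8 counts in a library.

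Among the auxiliary subunits, the cornichon homologs differed from each other. Cnih3 promotes export of the receptor from the endoplasmic reticulum and slows its deactivation, and lies at chr1:181352628-181460641 (ENSMUSG00000026514.14) on the plus strand. It had 137.2, 142.9 and 132.8 CPM at 6 months and 111.2, 104.7 and 102.0 CPM at 24 months. The spread within each age was small, the groups did not overlap on CPM or TPM, and the log2 fold change was -0.38 (SE 0.086). Cnih2 acts on the receptor in a similar way and lies at chr19:5092868-5098521 (ENSMUSG00000024873.7) on the minus strand. It had 33.60, 153.0 and 483.1 CPM in the young mice and 451.6, 336.8 and 163.1 CPM in the old mice. Mouse 10 stood 14.4-fold below mouse 17 of the same age, and the ages overlapped fully. Its log2 fold change of 0.51 had an SE of 0.705, and moved from -0.001 without mouse 10 to 1.766 without mouse 17.

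Shisa9 (CKAMP44) slows recovery of the receptor from desensitization and lies at chr16:11984113-12270902 (ENSMUSG00000022494.15) on the plus strand. It had 78.18, 97.51 and 81.33 CPM at 6 months and 63.08, 60.78 and 58.98 CPM at 24 months. The old mice lay close together and below every young mouse, with a log2 fold change of -0.49 (SE 0.106). Shisa6, a related protein that traps receptors at the postsynapse, lies at chr11:66211725-66525964 (ENSMUSG00000053930.13) on the minus strand. It was scarce, with 82, 123 and 102 counts in the young mice and 86, 122 and 99 in the old mice. The ages overlapped, and the log2 fold change was -0.04 (SE 0.187), with a sign that turned under other scalings of the libraries (0.15 with library totals alone).

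Gsg1l, an auxiliary subunit that suppresses receptor currents, lies at chr7:125878420-126082411 (ENSMUSG00000046182.8) on the minus strand. It had 86.19, 81.76 and 85.15 CPM at 6 months and 73.07, 60.43 and 76.75 CPM at 24 months. The groups were separate on CPM and overlapped on TPM, and the log2 fold change was -0.27 (SE 0.107), or -0.13 without mouse 4. Grip1, a multi-PDZ scaffold that binds the tails of GluA2 and GluA3, lies at chr10:119453830-120087261 (ENSMUSG00000034813.18) on the plus strand. It had 18.61, 24.24 and 23.42 CPM in the young mice and 17.78, 15.69 and 15.69 CPM in the old mice, with a log2 fold change of -0.43 (SE 0.131). Its lowest young mouse, mouse 10, was just above its highest old mouse, mouse 2, on CPM and below it on TPM.

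**Figure D1:**
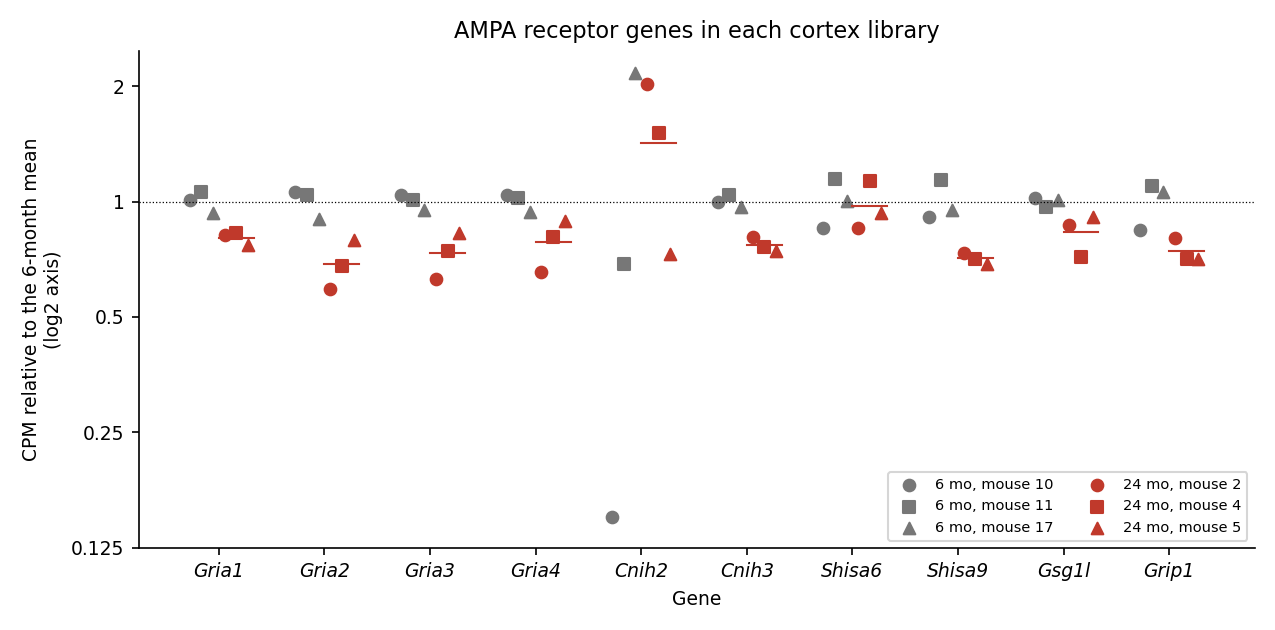
TMM-scaled CPM of the 10 genes in each library, divided by the gene's 6-month mean, on a log2 axis. Grey points are the 3 young mice, red points the 3 old mice, and red bars the 24-month mean; 8 genes have separate ages on this scale (5 on TPM), beside 32.4% of genes with a mean of at least 1 CPM (17.2% on TPM), Shisa6 overlaps, and Cnih2 spreads 14.4-fold over the libraries.

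Fitted over 32905 genes with edgeR's quasi-likelihood test, 0 of the 10 members passed a 1% FDR, and the share of all genes that did was 0.0%. At an unadjusted p under 0.05, 8 members were lower and 0 higher, beside 13.1% of all genes tested and 26.9% of the 15793 genes with a mean of at least 1 CPM that were lower. At 10% FDR, 7 members were lower at 24 months and 0 were higher (the exceptions being Cnih2, Shisa6 and Gsg1l), beside 8.33% of all genes tested and 17.3% of those 15793 genes. Groups that did not overlap, with the old mice lower, were found for 8 members on TMM-scaled CPM and for 5 on TPM, beside 32.4% and 17.2% of those 15793 genes. Nothing is read from these counts, because the same comparison chose the members. By other tests, 1 member passed 1% FDR with edgeR's likelihood ratio test (Gria2), and 0 did with edgeR's exact test, DESeq2 or limma. The 10% FDR count was 0 when mouse 10, mouse 11, mouse 2 or mouse 4 was left out, with Gria2 still at -0.436 to -0.499. It was 8 without mouse 5 and 5 without mouse 17, so it depended on which mouse was left out. All of these fits had fewer mice than the main fit, and the reason for the counts of 0 was not tested.

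The size of the differences depended on how the libraries were scaled. With TMM factors, the median log2 fold change of the 10 members was -0.36, and that of the genes with a mean of at least 1 CPM was -0.14. With library totals alone, these medians were -0.17 and 0.05, and with the expressed genes centred on 0 the members' median was -0.22. A correction of each library for the GC content of transcripts, chosen after the data were seen, gave -0.21 and 0.01. Relative to the centred genes, Gria2 was at -0.40, Shisa9 at -0.35, Gria3 at -0.31, Grip1 at -0.29, Cnih3 at -0.23, Gria4 at -0.21, Gria1 at -0.17 and Gsg1l at -0.13. These 8 members were below 0 in all 17 alternatives tried, with the smallest difference for Gsg1l (-0.08 with library totals). Of the genes with a mean of at least 1 CPM, 3.16% had a fold change below that of Gria2 and 4.98% one below that of Shisa9 with TMM factors, and 1.79% and 6.44% with the GC correction.

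**Figure D2:**
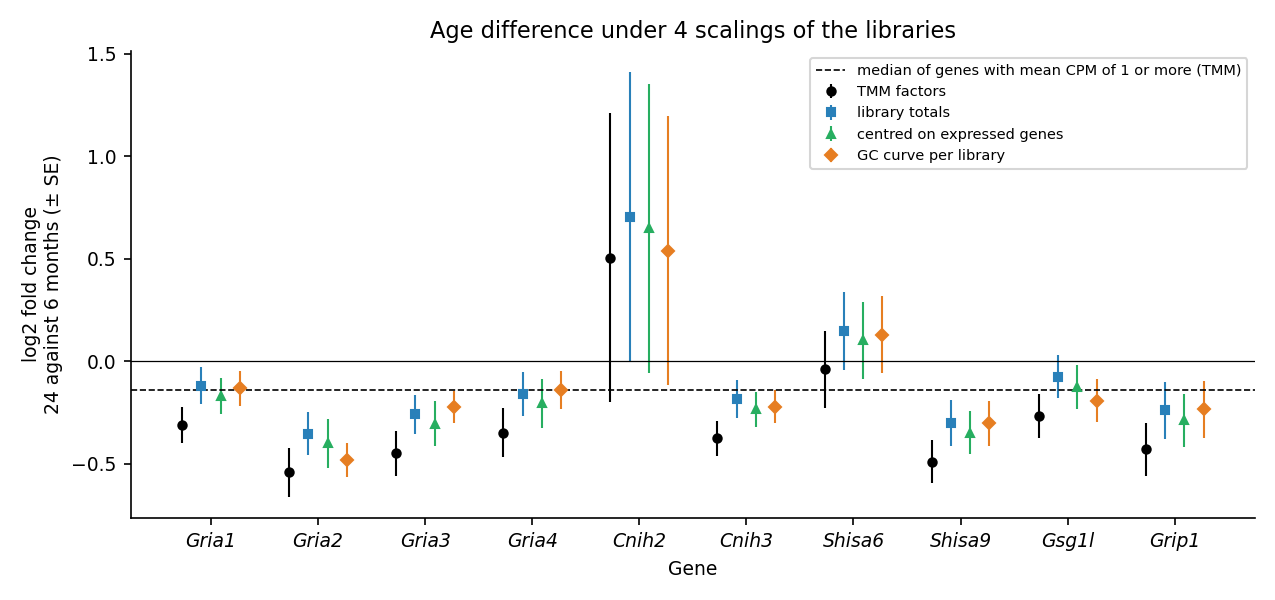
Log2 fold change at 24 against 6 months of each gene (points, with bars of ± 1 SE) under 4 scalings of the libraries; the dashed line is the median of genes with a mean of at least 1 CPM under TMM. Gria2 is the lowest under each of the 4, Gria1, Gria4 and Gsg1l come nearest to 0 of the 8 genes that stay below it, and Shisa6 changes sign.

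Since a ratio within a library does not depend on a scaling factor shared by all genes, the pore subunits were described by shares. Each gene's share was taken of the summed TPM of Gria1 to Gria4. A library effect that varies with GC content does not cancel, and the longest Gria1 and Gria2 transcripts were 48.5 and 36.8% GC. Median log2 CPM about each gene's mean was examined by GC content in mice 2, 4 and 5. It was -0.2, -0.06 and 0.07 for expressed genes of 22.1 to 40.5% GC. For those of 47.1 to 49.0% GC it was -0.134, -0.085 and -0.026. The part of GC content in the shares was not tested. The sum itself is not a ratio and depends on scaling. It was 890.6, 909.3 and 803.5 TPM at 6 months and 656.3, 714.2 and 748.0 TPM at 24 months. Every old mouse was below every young one. Gria1 made up 41.1, 42.8 and 42.3% in the young mice and 49.3, 45.7 and 40.7% in the old mice, so that mice 2 and 4 were above all young mice and mouse 5 below them. Its means were 42.0 ± 0.883% and 45.2 ± 4.35% (SD, n = 3), a difference of 3.16 percentage points that became 1.11 without mouse 2 and 5.44 without mouse 5. The share of Gria2 was 33.7, 32.9 and 32.0% in the young mice and 27.8, 29.3 and 32.7% in the old mice. Mice 2 and 4 were thus below all young mice and mouse 5 was within their range. Its means were 32.9 ± 0.826% and 29.9 ± 2.5%, a difference of -2.93 percentage points that became -1.88 without mouse 2 and -4.31 without mouse 5. The shares of Gria3 (17.6 ± 0.505% and 17.1 ± 1.23%) and Gria4 (7.46 ± 0.141% and 7.75 ± 0.684%) overlapped between the ages. Without division by length, Gria2 made up 51.8 ± 0.929% of the 4 genes' counts at 6 months and 48.6 ± 2.6% at 24 months.

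**Figure D3:**
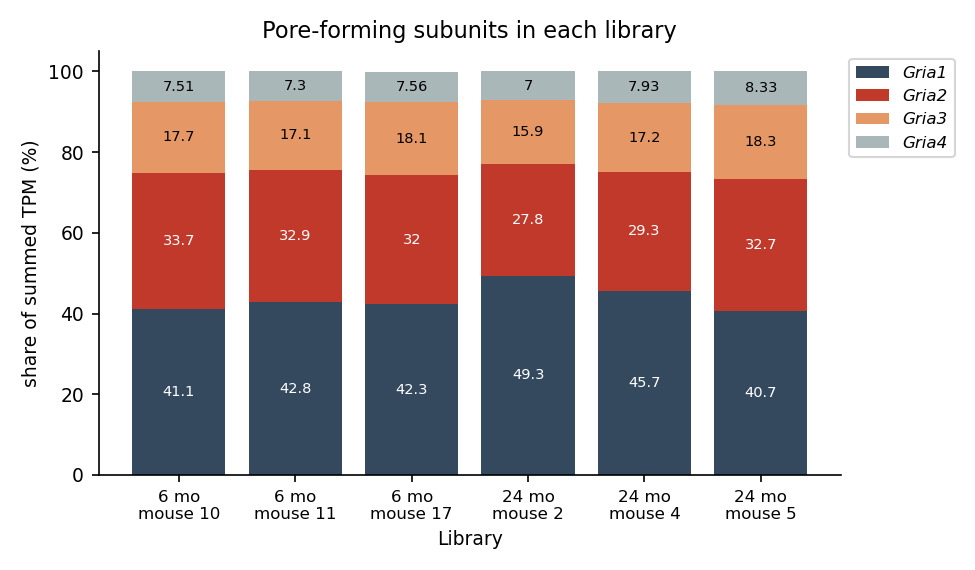
Share of each pore subunit gene in the summed TPM of Gria1 to Gria4 (%), one bar per library, young mice on the left. The share of Gria2 is 27.8% in mouse 2 and 29.3% in mouse 4, below the 32.0 to 33.7% of the young mice, and 32.7% in mouse 5.

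The genes with profiles most like the pore subunits over the 6 libraries were taken by the smallest Euclidean distance between log2 CPM values centred on each gene's mean, among genes with a mean of at least 10 TPM. For Gria1 these were Pcbp3 (distance 0.0486), Arf1 (0.0545) and Gm5124 (0.0554). For Gria2 they were Snrnp200 (0.0532), Azin1 (0.0565) and Rpe (0.0636). For Gria3 they were Acly (0.0393), Sp4 (0.043) and Ppp2r5e (0.056), and for Gria4 they included Armcx1 (0.0415) and Lmbrd1 (0.0458). No subunit was among the nearest 3 of another. The 3 genes nearest to Gria1 and to Gria2 had log2 fold changes of -0.29 to -0.35 and of -0.52 to -0.56. Values close to those of the subunits follow from the selection, which used the same 6 libraries.

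Cnih2 was the most variable member. Its range over the 6 libraries was 3.83 on the log2 scale, and 4 of the 9675 genes with a mean of at least 10 TPM, Cnih2 included, had a range as wide. The genes nearest to Cnih2, looked up after its values were seen, included Grik5, which encodes a kainate-type glutamate receptor subunit. Grik5 had 285, 975 and 3396 counts in mice 10, 11 and 17, and 2868, 2612 and 1320 in mice 2, 4 and 5. Gprin1, a G protein-regulated inducer of neurite outgrowth, had 356, 1592 and 4058 counts, and 3485, 2872 and 1318. C1ql1, Gm43445 and Rundc3a followed the same pattern, at distances of 0.559, 0.79 and 0.812, against 0.489 for Grik5 and 0.51 for Gprin1. All of these were picked for profiles like that of Cnih2. They were lowest in mouse 10 and had a young mouse and an old mouse at similar high levels. The longest Cnih2 transcript was 62.3% GC, the 98.6th percentile of the genes with a mean of at least 1 CPM, and those of Grik5, Gprin1, C1ql1, Gm43445 and Rundc3a were 61.7, 60.5, 65.8, 48.5 and 60.9%. The part of base composition in this spread was not tested. Cnih2 shares 14 exonic bases with Yif1a on the other strand, and Yif1a had 625 to 769 counts in every library, including mouse 10.

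**Figure D4:**
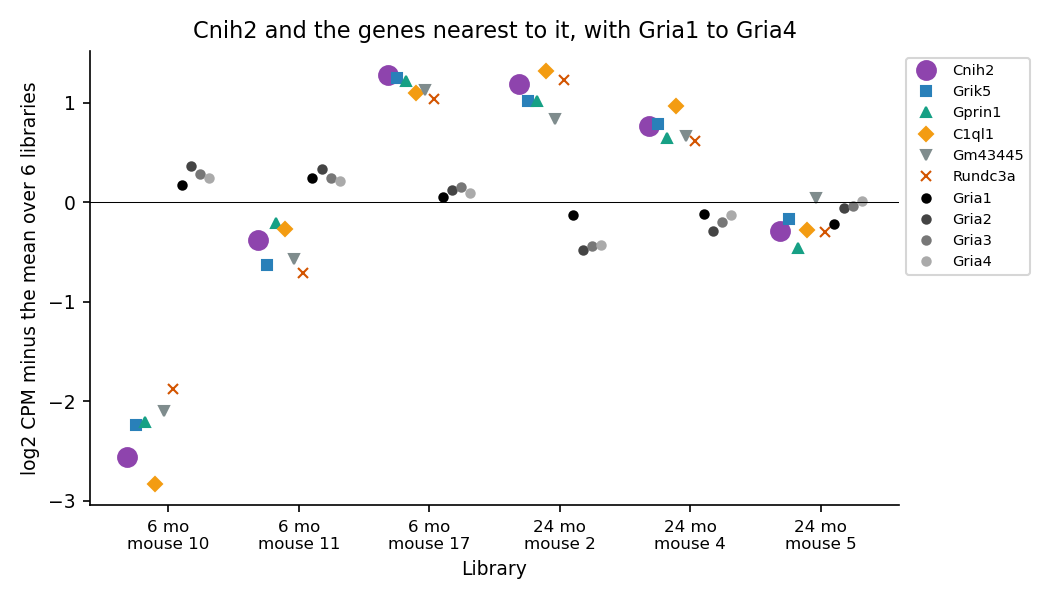
Log2 CPM of Cnih2, of the 5 genes nearest to it and of Gria1 to Gria4 in each library, each minus the gene's mean over the 6 libraries. Cnih2 and its neighbours are far below their means in mouse 10 and above them in mouse 17, mouse 2 and mouse 4, on a scale on which the Gria genes move little.

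The promoter windows of Gria2 and Cnih2 are shown as those of the pore gene with the lowest fold change and of the member with the widest spread. The windows come from RefSeq (GRCm38.p6), hold 300 bases from 250 before to 50 after the start, and are written 5′ to 3′ on the strand of the gene, with GC boxes in capitals.
Gria2, chr3:80802786-80803085, minus strand: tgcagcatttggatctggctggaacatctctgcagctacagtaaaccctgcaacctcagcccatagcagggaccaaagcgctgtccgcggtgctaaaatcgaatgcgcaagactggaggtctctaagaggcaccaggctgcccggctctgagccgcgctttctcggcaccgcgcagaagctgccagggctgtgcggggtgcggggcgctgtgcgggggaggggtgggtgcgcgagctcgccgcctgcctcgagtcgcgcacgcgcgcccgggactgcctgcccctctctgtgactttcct
Cnih2, chr19:5098472-5098771, minus strand: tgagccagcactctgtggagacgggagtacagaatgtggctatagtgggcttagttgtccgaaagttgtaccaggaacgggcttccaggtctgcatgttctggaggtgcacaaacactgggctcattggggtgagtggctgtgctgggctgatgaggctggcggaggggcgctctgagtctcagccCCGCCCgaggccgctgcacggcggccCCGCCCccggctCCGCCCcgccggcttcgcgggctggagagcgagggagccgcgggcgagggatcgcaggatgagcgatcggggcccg

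Promoters of 5 of the 10 members were matched, those of Gria2, Gria4, Cnih2, Cnih3 and Grip1. The letters searched on both strands were TGACGTCA (the cyclic AMP response element), its core TGACG, which the former contains, GGGCGG (the GC box) and TATAAA (the TATA box). The Cnih2 window held 3 GC boxes, each as the reverse complement, and that of Cnih3 held 1. The Gria2 and Gria4 windows held none of the 4 motifs. Of Grip1's 3 windows, 1 held 2 GC boxes and another TGACG and a TATA box. Among all 32851 promoter windows, 1.79% held TGACGTCA, 20.8% TGACG, 35.7% GGGCGG and 13.6% TATAAA. The GC content of the window was 65.7% for Gria2 and 67.3% for Cnih2, beside a median of 52.7%, whereas the longest Gria2 transcript was 36.8% GC, the 2.38th percentile.

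The members were next set beside 49 other genes of AMPA receptor biology and glutamate receptors. In the same fit over all genes, 0 of the 49 passed 1% FDR with edgeR's quasi-likelihood test, edgeR's exact test, DESeq2 or limma, and 1 did with the likelihood ratio test. At an unadjusted p under 0.05, 16 of the 49 were lower and 0 higher, beside 26.9% lower of the genes with a mean of at least 1 CPM. At 10% FDR 11 of the 49 were lower and 0 higher, beside 17.3% lower of those genes. The median log2 fold change of the 49 was -0.15, beside -0.14 for those genes, so the lists as a whole lay near the background. Without mouse 10, 11, 2 or 4, 0 of the 49 passed 10% FDR. Without mouse 5, 12 were lower and 0 higher, and without mouse 17, 5 were lower and 1 higher. All of these fits had fewer mice than the main fit, and the reason for the counts of 0 was not tested.

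The TARPs, the transmembrane proteins that chaperone AMPA receptors to the synapse, gave 0 of 6 calls at 10% FDR in edgeR's quasi-likelihood test. At an unadjusted p under 0.05, 2 were lower and 0 higher. Of genes with a mean of at least 1 CPM, 17.3% and 26.9% were lower at these thresholds. All 6 overlapped between the ages on TMM-scaled CPM, and on TPM only Cacng7 was separate, with the old mice higher (7.708 to 9.784 and 10.1 to 12.46 TPM). Cacng2 (stargazin), the founding TARP, had a log2 fold change of -0.12 (SE 0.116), with 112.4 ± 8.59 CPM at 6 months and 103.8 ± 14.4 CPM at 24 months (SD, n = 3). Cacng3 was at -0.25 (SE 0.107), Cacng4 at -0.08 (SE 0.160), Cacng7 at 0.29 (SE 0.152) and Cacng8 at 0.01 (SE 0.165). Cacng5 had the lowest fold change, -0.71 (SE 0.292), with 537 counts in mouse 11 beside 226 and 233 in the other two young mice. Whether the TARPs differ from the members was not tested.

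Of genes with a mean of at least 1 CPM, 17.3% were lower at 10% FDR, the share beside each list count below. The count over all 49 genes, 11, was 1 with library totals, centring or filterByExpr. Of 13 other auxiliary and biogenesis genes, 6 were lower at 10% FDR and 0 higher. They ranged from Olfm2, a secreted olfactomedin protein of the receptor complex (log2 fold change -0.40, SE 0.090), to Prrt2, a presynaptic and AMPA receptor-associated protein (0.01, SE 0.166). Of 4 extracellular organizers, 2 were lower at 10% FDR. These were Lrrtm4, a synaptic adhesion protein (-0.54, SE 0.154, the lowest of the list), and Nptx1, a neuronal pentraxin, named here after its values were seen (-0.51, SE 0.134). Nptx2, a pentraxin induced by activity, was the highest of the list at -0.06 (SE 0.286). Of 9 scaffold and trafficking genes, 1 was lower at 10% FDR. This was Nsf, the ATPase that binds GluA2 and keeps it at the membrane, with 2060 ± 130 CPM at 6 months and 1539 ± 135 CPM at 24 months (-0.42, SE 0.096). Dlg4, which encodes PSD-95, was the highest of the list, at 0.08 (SE 0.101).

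Of the 3 genes of RNA editing enzymes, 1 was lower at 10% FDR, beside 17.3% of genes with a mean of at least 1 CPM. Adarb1, which encodes the enzyme that edits the Gria2 Q/R site, had 169.2 ± 14.5 CPM at 6 months and 147.5 ± 31.9 CPM at 24 months, a log2 fold change of -0.20 (SE 0.145; adjusted p = 0.374 over all genes, edgeR). Adar was the lowest of the list at -0.39 (SE 0.106) and Adarb2 the highest at -0.03 (SE 0.108). Of 14 other ionotropic glutamate receptor subunits, 1 was lower at 10% FDR, beside the same 17.3%. This was Grin3a, an NMDA receptor subunit (-0.48, SE 0.092), the lowest of the list. Grin3b was the highest at 0.80 (SE 0.777), with at most 7 counts in a young library.

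**Figure D5:**
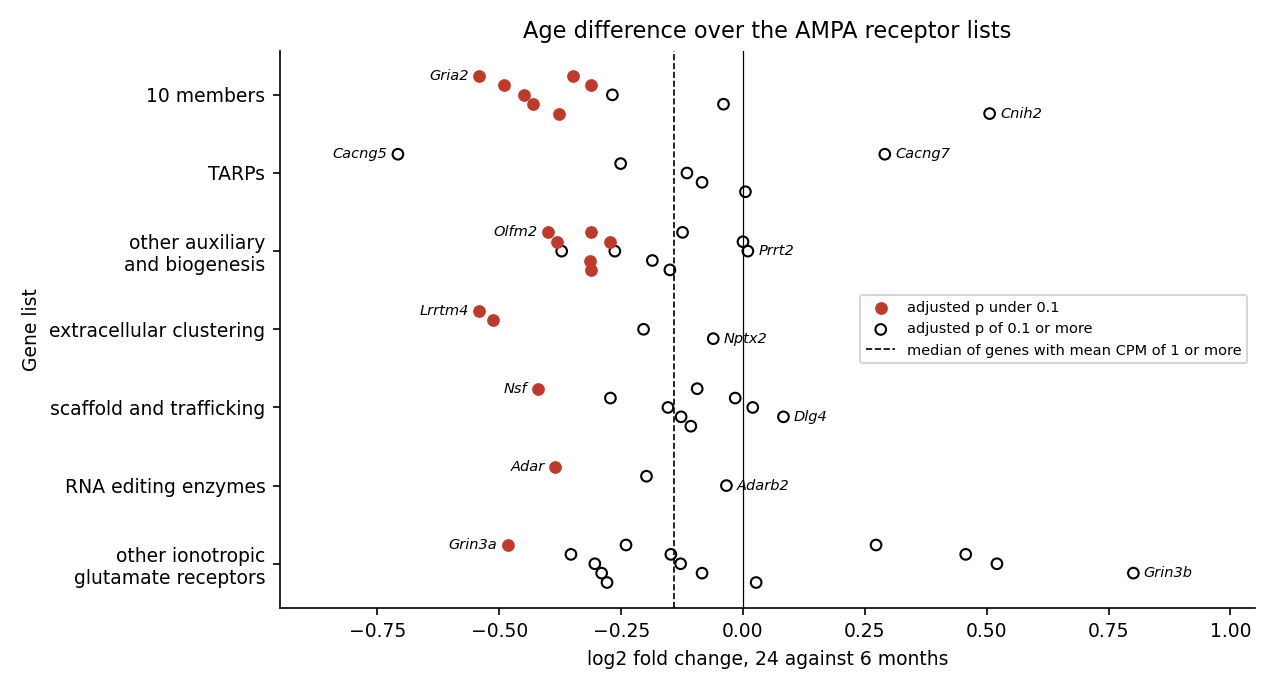
Log2 fold change at 24 against 6 months of the 10 members and of 6 lists of related genes, one point per gene, filled where the adjusted p over all genes is under 0.1. The names mark the lowest and highest gene of each list, and the dashed line is the median of genes with a mean of at least 1 CPM. The members were chosen on this comparison, so their filled points are not set against those of the lists, and 17.3% of genes with a mean of at least 1 CPM would be filled on the lower side.

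Markers of the cell types in the tissue were summed per library, and some differed between the ages. The summed level of 5 markers of excitatory cortical neurons was 702 to 736 TPM at 6 months and 611 to 649 TPM at 24 months, without overlap. Of the markers, which are named here after their values were seen, Neurod6 went from a mean of 352.8 to 280.8 TPM, whereas Slc17a7 (146.6 and 152.5 TPM) and Neurod2 (72.28 and 73.02 TPM) overlapped between the ages. The 6 general neuronal markers summed to 4010 to 4830 TPM and 3250 to 4240 TPM, and the 7 inhibitory neuron markers to 1600 to 1620 TPM and 1470 to 1640 TPM, both with overlap. The 6 astrocyte markers summed to more at 24 months without overlap (2830 to 3020 and 3280 to 3450 TPM), as did the 5 microglial markers (552 to 568 and 610 to 635 TPM). The astrocyte sum was mostly Aldoc (means of 1782 and 2088 TPM), Gfap had means of 131.0 and 229.1 TPM, and Slc1a3 (418.6 and 405.6 TPM) and Gja1 (155.3 and 149.3 TPM) overlapped. In the fit used for the members, the astrocyte list had a median log2 fold change of -0.01 and the microglial list one of 0.01. Each of these had 1 gene higher at 10% FDR, beside 390 of the 15793 genes with a mean of at least 1 CPM. The 6 general neuronal markers had a median of -0.271 and the 5 excitatory ones -0.315. In each of these lists 2 were lower at 10% FDR, beside 17.3% of the 15793 genes. The 7 inhibitory markers were at -0.164, with 0 lower. The members' median was -0.36, beside -0.14 for genes with a mean of at least 1 CPM. Snap25, Syt1, Rbfox3 and Stmn2 were lower without overlap on TMM-scaled CPM, whereas Map2 and Eno2 overlapped. On TPM, only Stmn2 of these 6 was lower without overlap. Of genes with a mean of at least 1 CPM, 32.4% were lower without overlap on CPM and 17.2% on TPM. The sums of oligodendrocyte (785 to 1260 and 452 to 1410 TPM), oligodendrocyte precursor (28.4 to 45.8 and 35.0 to 44.4 TPM), endothelial (46.5 to 66.0 and 47.9 to 67.6 TPM), hippocampal (19.4 to 22.0 and 17.1 to 22.4 TPM), choroid plexus (35.1 to 114 and 48.0 to 113 TPM) and red blood cell markers (287 to 370 and 231 to 320 TPM) overlapped. The precursor sum mixed unlike genes, with C1ql1 at 1.231 to 23.83 TPM over the libraries. Without overlap on TPM, Gpr17 was lower (means of 9.481 and 6.09 TPM) and Cspg4 higher (2.456 and 3.057 TPM), and Pdgfra overlapped. Immediate early genes, which follow neuronal activity, summed to 1650 to 3430 TPM at 6 months and 627 to 3910 TPM at 24 months. The part of these markers in the differences of the members was not tested.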

How the data were processed

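RNA-seq of 6 cortex libraries was used. Per the submitters' processing notes and the study's methods, the authors trimmed single-end reads (Trim Galore 0.6.4), mapped them to GRCm38 with STAR 2.7.3a and made gene counts over exons with featureCounts (Subread 2.0.0). The deposited counts were whole in 100% of values, although the methods name fractional counting of multi-mapping reads; the strand setting is not given in the sources used here. Gene coordinates were read from the GENCODE vM21 annotation of the same build. The authors also deposited TPM values, which divide the counts by exonic length.

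The counts were fitted in edgeR 4.0.16 (TMM factors, quasi-likelihood test, a minimum of 10 counts per gene summed over the 6 libraries, no covariates, Benjamini-Hochberg over 32905 genes). DESeq2 1.42.0 and limma 3.58.1 served as alternatives. The fit was tested on simulated counts. Levels between genes were compared on TPM with exact tests in Python 3.11.15. The named genes were the 10 members, all TARPs, Adarb1, Nsf, any listed gene past 1% FDR, the lowest and highest of each list, and the 3 genes nearest to each Gria subunit; other names are said to be chosen later, and a gene that the rule names is not reported here. The members and lists were chosen with earlier results of these data known. Replicates are different mice, and nothing in the labels gives a batch.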

Additional observations from a re-analysis of the deposited data

How the results depend on the processing

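No paired analysis was possible because the mice of the 2 ages share no replicate number. Groups of 3 were not tested for outlying values, and single libraries were checked by leaving each out. Of the members, Gria1, Gria2, Gria3, Gria4, Cnih3, Shisa9, Gsg1l and Grip1 kept a lower fitted level at 24 months in all 17 alternatives. The log2 fold change of Shisa6 turned positive with library totals (0.15), expressed genes centred on 0 (0.10), filterByExpr (0.072), limma on log2(TPM + 0.1) (0.069) and on log2(TPM + 1) (0.044), the GC curve chosen after seeing the data (0.13), without mouse 2 (0.06) and without mouse 11 (0.11), and it was -0.141 to 0.11 when 1 mouse was left out. That of Cnih2 was -0.001 to 1.766 when 1 mouse was left out, the lowest without mouse 10. The cause was not tested.

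The likelihood ratio test put 1 member and 1 gene of the 49 related genes past 1% FDR, where the quasi-likelihood test put 0. The count of members lower at 10% FDR, 7, was 1 with the GC curve and with library totals, 2 with centring and with filterByExpr, 3 with limma on log2(TPM + 0.1), 0 with limma on log2(TPM + 1), and 0 to 8 when 1 mouse was left out. That of the 49 related genes, 11, was 3, 1, 1, 1, 3 and 0 under the GC curve, library totals, centring, filterByExpr and both limma settings, 7 with a minimum of 1 count, and 0 to 12 when 1 mouse was left out. Library totals put 1 of them higher, as did leaving out mouse 17 (0 to 1). Over all genes at 1% FDR, the quasi-likelihood test called 0 (4316 lower and 5780 higher at an unadjusted p under 0.05), the likelihood ratio test 252 lower and 1451 higher, the edgeR exact test 189 and 933, DESeq2 115 and 112, and a minimum of 1 count 8 and 34. Leaving out 1 mouse gave 0 to 1 lower and 0 to 13 higher. Differences in subunit share (24 minus 6 months) moved by less than the SD pooled over both ages (3.14, 1.86, 0.94 and 0.49 percentage points for Gria1 to Gria4), but when 1 mouse was left out they were 1.11 to 5.44 points for Gria1, -4.31 to -1.88 for Gria2, -1.13 to 0.10 for Gria3 (positive without mouse 2) and 0.01 to 0.67 for Gria4. Of the 9 neighbour pairs, 8 passed the test on TPM and 0 on CPM, where the order of the members differs. After adjustment over 9 pairs none can pass unless most reach the smallest p that 6 mice allow. The 0 on CPM therefore does not speak against single pairs, such as Gria2 above Gria1, which held in every mouse. With 5 mice 0 passed, and the smallest p they allow is 0.0625, so these say nothing of stability.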
